A study of Mus musculus with 12 samples.

Results

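The genes described here are 9 secreted protease inhibitors of retina, out of 27179 gene IDs counted in each library. They are the serpin Serpina3n, the macroglobulin A2m, the inter-alpha-inhibitor heavy chains Itih2, Itih3 and Itih5, the tissue inhibitors of metalloproteases Timp1, Timp2 and Timp3, and the cystatin Cst3. Each was found by its Entrez ID, and all 9 were among the 16475 genes that passed the filter on low counts. Serpina3n, A2m and Itih2 were chosen by their measured rise in 12-month knockout over 12-month control retina. Their values in any comparison that uses a 12-month group are therefore given as a description, with no test. The other 6 were added as relatives and as inhibitors known from glia. Isolated mouse retina was sequenced as poly(A) RNA in 4 groups of 3 libraries: glial ABCA1 knockout (KO) at 12 months, control at 12 months, KO at 3 months and control at 3 months. The labels give the KO genotype as Glia-ABCA1KO, and the extraction protocol calls the animals Astro-KO mice. The sources used here do not give the driver of the deletion, the alleles that the controls carry or the strain. Whether each library is its own animal is also not stated, so p-values measure the spread between these libraries, which may be technical.

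Secreted protease inhibitors limit the cutting of extracellular proteins. Serpins offer a loop that traps a serine protease in a covalent complex, macroglobulins close around a protease of almost any class, and cystatins block the active site of cysteine cathepsins. TIMPs bind matrix metalloproteases, and the heavy chains of the inter-alpha-inhibitor family are transferred onto hyaluronan. In rodents several of these genes are acute-phase genes of liver, and Serpina3n is widely used as a marker of reactive astrocytes.

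The 12 libraries held between 29027099 and 30438026 counts. Abca1, the transporter gene targeted in these mice, stood at 36.3 ± 7.91 CPM in KO and 30.8 ± 2.66 CPM in control retina at 12 months, and at 26.3 ± 1.78 CPM in KO and 22.7 ± 3.34 CPM in control retina at 3 months (SD, n = 3 each), so it was not lower in KO. CPM are counts per library total in the usual counts-per-million unit, scaled between libraries by TMM factors. The counts span the whole gene and all retinal cells and do not check a deletion in glia. In 12-month KO libraries the X-inactivation RNA Xist stood at 52.3 to 85.5 CPM, against 0.0686 to 0.609 CPM in the other 9 libraries, while the Y-linked Eif2s3y was at 59.2 to 71.4 CPM, against 44.8 to 76.3 CPM. Whatever made the Xist levels differ cannot be told apart from the KO genotype at 12 months in these libraries. The same holds for 12 against 3 months in KO retina. A pair of libraries stood apart from their groups. In a chi-square test of counts over genes, divided by its degrees of freedom so that 1 is sampling noise alone, 12-month KO replicate 1 gave 21.6 and 24.9 against its fellows, which gave 5.16 with each other. Replicate 2 of the 3-month control gave 43.1 and 41.9, and its fellows 4.19. Values without these libraries are given below where they bear on a result.

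The levels of the 9 genes spanned more than 3 orders of magnitude per exon length. Cst3, the main secreted inhibitor of cysteine cathepsins, was the most abundant in every group. Averaged over the 12 libraries it reached 250.2 CPM per kb of exon, above 99.4% of the 15018 tested genes with a known length. Timp2, at 27.04 CPM per kb, and Timp3, at 9.09 CPM per kb, followed, above 87.9% and 65.5% of genes. Serpina3n averaged 3.48 CPM per kb, A2m 1.36, Timp1 0.885, Itih2 0.348, Itih5 0.220 and Itih3 0.140. The order of the first 4 was the same in all 4 groups, with no overlap between the libraries of neighbouring genes in that order. Below them the order moved with the group. In 12-month KO retina Itih2 was at 1.08 ± 0.504 CPM per kb and Timp1 at 0.946 ± 0.346 CPM per kb (SD, n = 3 each), which overlapped. In 3-month control retina Itih2 was the lowest of the 9, at 0.0610 ± 0.0208 CPM per kb (SD, n = 3).

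**Figure D1:**
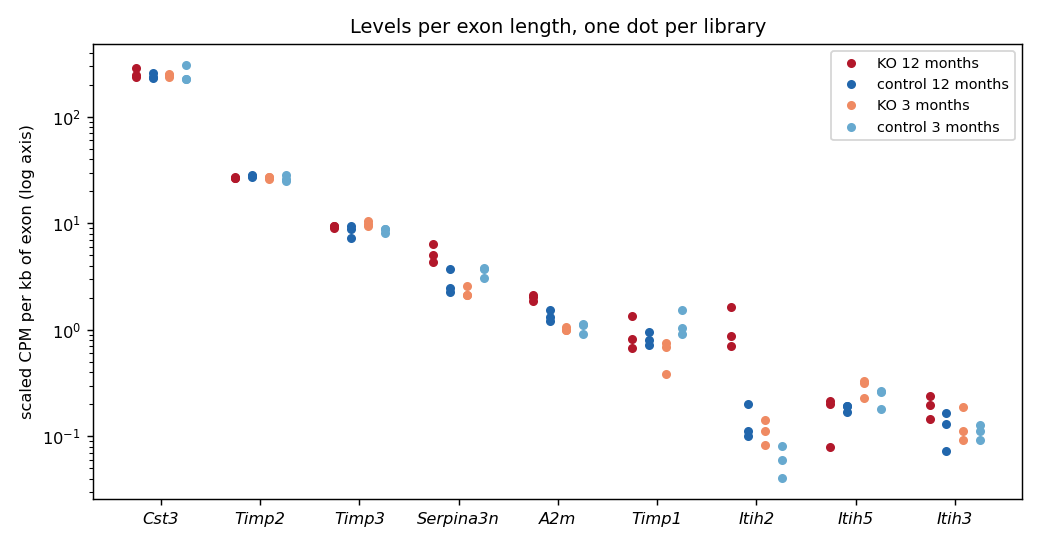
Level of each inhibitor gene in scaled CPM per kb of exon (log axis), with 1 dot per library and the 4 groups side by side. Cst3 lies near 250.2, and Itih2 in 12-month KO retina (0.707 to 1.65) lies above its values in the other groups (0.0404 to 0.201).

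Serpina3n (Entrez 20716, chromosome 12 from 104406646 to 104414334, plus strand, GRCm38) encodes a serpin that inhibits chymotrypsin-like and leukocyte proteases. At 12 months it stood at 13.1, 8.88 and 10.5 CPM in the KO libraries, against 4.67, 5.08 and 7.66 CPM in the control libraries. The 3-month values were 4.42, 5.28 and 4.43 CPM in the KO libraries, against 6.39, 7.91 and 7.77 CPM in the control libraries. The groups did not overlap at either age, but KO libraries were the higher ones at 12 months and the lower ones at 3 months.

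The 3-month comparison shares no library with the choice of the gene and could be tested. The log2 fold change was -0.64 ± 0.19 (SE), a level 1.56-fold lower in KO, with adjusted p = 0.49 over all genes (edgeR quasi-likelihood test, Benjamini-Hochberg), so it did not pass. Over the alternatives the fold change stayed between -0.73 and -0.59 and the adjusted p between 0.11 (limma-voom) and 0.87. Without control replicate 2 it was -0.59 (adjusted p = 0.83, edgeR). In the same 3-month comparison the 19 lens genes summed to 10.4 to 12.8 CPM in KO and to 51.8 to 4916 CPM in control libraries. The 15 skeletal muscle genes summed to 41.9 to 46.4 CPM in KO and to 143 to 158 CPM in control libraries. No gene of either list had 0 counts throughout a 3-month group. The part of such tissue in the 3-month values of Serpina3n and of the other members was not tested.

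At 12 months the log2 fold change that chose Serpina3n was 0.90 ± 0.18 (SE), or 1.86-fold, and without KO replicate 1 it was 0.74, or 1.67-fold. Control replicate 3 carried the highest control value, and without it the log2 fold change was 1.15. In KO retina Serpina3n was 2.30-fold higher at 12 than at 3 months, with no overlap. In control retina the 12-month values (4.67 to 7.66 CPM) overlapped the 3-month values (6.39 to 7.91 CPM). The authors' deposited table for the 12-month comparison lists Serpina3n with a log2 fold change of 0.44, from the same libraries that chose the gene.

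Serpina3n belongs to a cluster of near-identical genes, and the sources used here do not say how reads with several alignments were counted. The other 10 Serpina3 genes in the files had at most 28 counts in any library, against 131 to 396 counts for Serpina3n. Of them 2 were tested, Serpina3g and Serpina3k, with 12 to 20 and 16 to 19 counts in 12-month KO libraries, against 2 to 28 and 11 to 23 in 12-month control libraries. Of the 32 tested genes within 2 Mb of Serpina3n none was called in the 12-month or the 3-month KO comparison, with median log2 fold changes of 0.01 and -0.02.

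The sequence just upstream of the gene is shown for Serpina3n and Itih2, which were both high in 12-month KO retina. A2m was high in that group too but had no RefSeq window. Acute-phase genes are classic targets of STAT3, C/EBP and NF-kB factors. The Serpina3n window (RefSeq, GRCm38.p6) starts 250 bases before a start site that lies 62 bases inside the annotated gene. Those 62 bases are not printed. The capitals mark a match to the NF-kB pattern, GGG and TTTCC parted by any 2 bases, at positions -171 to -162 from that start site. The printed bases lie at chr12:104406458-104406645, plus strand, in 5′ to 3′ direction.
Serpina3n: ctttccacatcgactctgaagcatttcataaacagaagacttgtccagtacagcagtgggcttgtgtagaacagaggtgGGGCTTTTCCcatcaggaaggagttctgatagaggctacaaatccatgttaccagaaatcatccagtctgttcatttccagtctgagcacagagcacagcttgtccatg
On both strands this pattern was present in 1.41% of 32851 RefSeq windows of 250 bases. The STAT pattern TTCNNNGAA, present in 7.02% of windows, and the C/EBP pattern TTGCNNAA, present in 9.56%, had no match in the Serpina3n window. The patterns were searched as plain letters, and a match is a description and not a binding site.

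A2m (Entrez 232345, chromosome 6 from 121636165 to 121679238, plus strand) encodes alpha-2-macroglobulin, which traps proteases of all classes in a molecular cage. It stood at 14.9, 13.1 and 14.4 CPM in 12-month KO libraries, against 8.51, 10.7 and 9.18 CPM in 12-month control libraries. In 3-month KO libraries it stood at 7.05, 7.41 and 7.002 CPM, against 6.35, 8.04 and 7.77 CPM in 3-month control libraries. The 12-month KO libraries were the highest of the 12, the 12-month control libraries came next, and both 3-month groups lay lower and overlapped each other. At 3 months the log2 fold change was -0.05 ± 0.13 (SE), with adjusted p = 0.93 (edgeR). Its 95% interval from the SE ran from -0.31 to 0.22.

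At 12 months A2m was 1.49-fold higher in KO than in control retina (log2 fold change 0.58 ± 0.13, SE), and 1.45-fold without KO replicate 1. It was 1.97-fold higher at 12 than at 3 months in KO retina and 1.28-fold higher in control retina, without overlap in either. These ratios share the 12-month libraries that chose the gene and are descriptions. The authors' deposited table lists A2m with a log2 fold change of 0.38, again from the libraries that chose it. Of its mouse relatives, Pzp ranged from 32 to 46 counts in 12-month KO libraries, against 28 to 34 in 12-month control libraries, Mug1 had 4 to 12 and 4 to 15 counts, and Mug2 had 1 count in 1 library of all 12.

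Itih2 (Entrez 16425, chromosome 2 from 10094591 to 10130683, minus strand) encodes a heavy chain of the serum inter-alpha-inhibitor, which in liver is joined to the bikunin light chain encoded by Ambp. It had 166, 87 and 69 counts in 12-month KO libraries, against 20, 10 and 11 counts in 12-month control libraries. At 3 months it had 14, 8 and 11 counts in KO libraries, against 8, 4 and 6 counts in control libraries. The 12-month KO libraries thus stood well above all others, and KO replicate 1 was the highest among them. The gene passed the filter without relying on that group, since 5 of the other 9 libraries had at least 10 counts. But it passed a stricter filter of 1 CPM in 3 libraries through that group alone. With only the 3-month libraries in the fit, it did not pass the filter. Even values made up 60.7% to 70.2% of a library's counts of 20 or fewer, and 48.6% to 50.7% of larger counts, in a range that ends at 400. Whether both reads of a pair were counted is not stated, so a low count may stand for fewer fragments.

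At 3 months Itih2 was at 0.373 ± 0.0991 CPM in KO and 0.202 ± 0.0689 CPM in control retina (SD, n = 3 each). The 3 KO values lay just above the 3 control values, and the log2 fold change of 0.87 ± 0.53 (SE) did not pass (adjusted p = 0.69, edgeR). At 12 months the log2 fold change that chose it was 2.96 ± 0.39 (SE), or 7.75-fold, and it was 2.51, or 5.70-fold, without KO replicate 1. In KO retina Itih2 was 9.51-fold higher at 12 than at 3 months, and in control retina 2.25-fold higher, without overlap in either. The authors' deposited table lists it with a log2 fold change of 0.56, also from the libraries that chose it. Those deposited fold changes lie closer to 0 than the ones computed here.

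The rest of the serum complex was present at trace level only. The range for Ambp was 16 to 26 counts in 12-month KO libraries, against 8 to 16 counts in 12-month control libraries, Itih4 had 18 to 25 and 12 to 20, and Itih1 had 3 to 6 and 2 to 3. The 11 liver secretory genes summed to 19.2 to 22.9 CPM in 12-month KO and to 14.7 to 19.3 CPM in 12-month control libraries, and none of the 11 tested was called. The 11 genes of corneal and surface epithelium summed to 8.56 to 12.7 CPM in 12-month KO and to 2.99 to 3.57 CPM in 12-month control libraries, with none at 0 in either group. Of its 8 tested genes 1 was called, higher in KO, where 0.127% of all genes were called higher. Their median log2 fold change at 12 months was 3.39. An unadjusted p below 0.05 was found for 5 of the 8 (edgeR), against 8.7% of all genes. In 3-month libraries the list summed to 3.55 to 11.9 CPM in KO and to 5.89, 8.16 and 33.0 CPM in control. The part of such tissue in the values of Itih2, Serpina3n and A2m was not tested. Of the 12 tested genes within 2 Mb of Itih2 none was called in either KO comparison. The closest on either side, Kin and Itih5, had log2 fold changes of -0.05 and -0.17 at 12 months.

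The 250 bases upstream of Itih2, at chr2:10130684-10130933, minus strand (RefSeq, GRCm38.p6), are shown beside those of Serpina3n. The capitals mark a match to the C/EBP pattern, read on the other strand as TTNNGCAA, at positions -33 to -26 from the start site.
Itih2: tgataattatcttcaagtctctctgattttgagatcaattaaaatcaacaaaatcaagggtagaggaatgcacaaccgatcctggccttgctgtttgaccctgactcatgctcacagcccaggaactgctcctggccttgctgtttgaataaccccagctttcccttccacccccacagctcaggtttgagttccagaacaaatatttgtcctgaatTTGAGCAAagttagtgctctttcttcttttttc
Neither the STAT nor the NF-kB pattern was present in this window. The windows of the other 6 members with an entry held none of the 3 patterns. G or C made up 46.4% of bases for Serpina3n and 43.2% for Itih2 over the whole window, against a median of 52.4% over all windows and 68.0% for the window of Timp2.

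**Figure D2:**
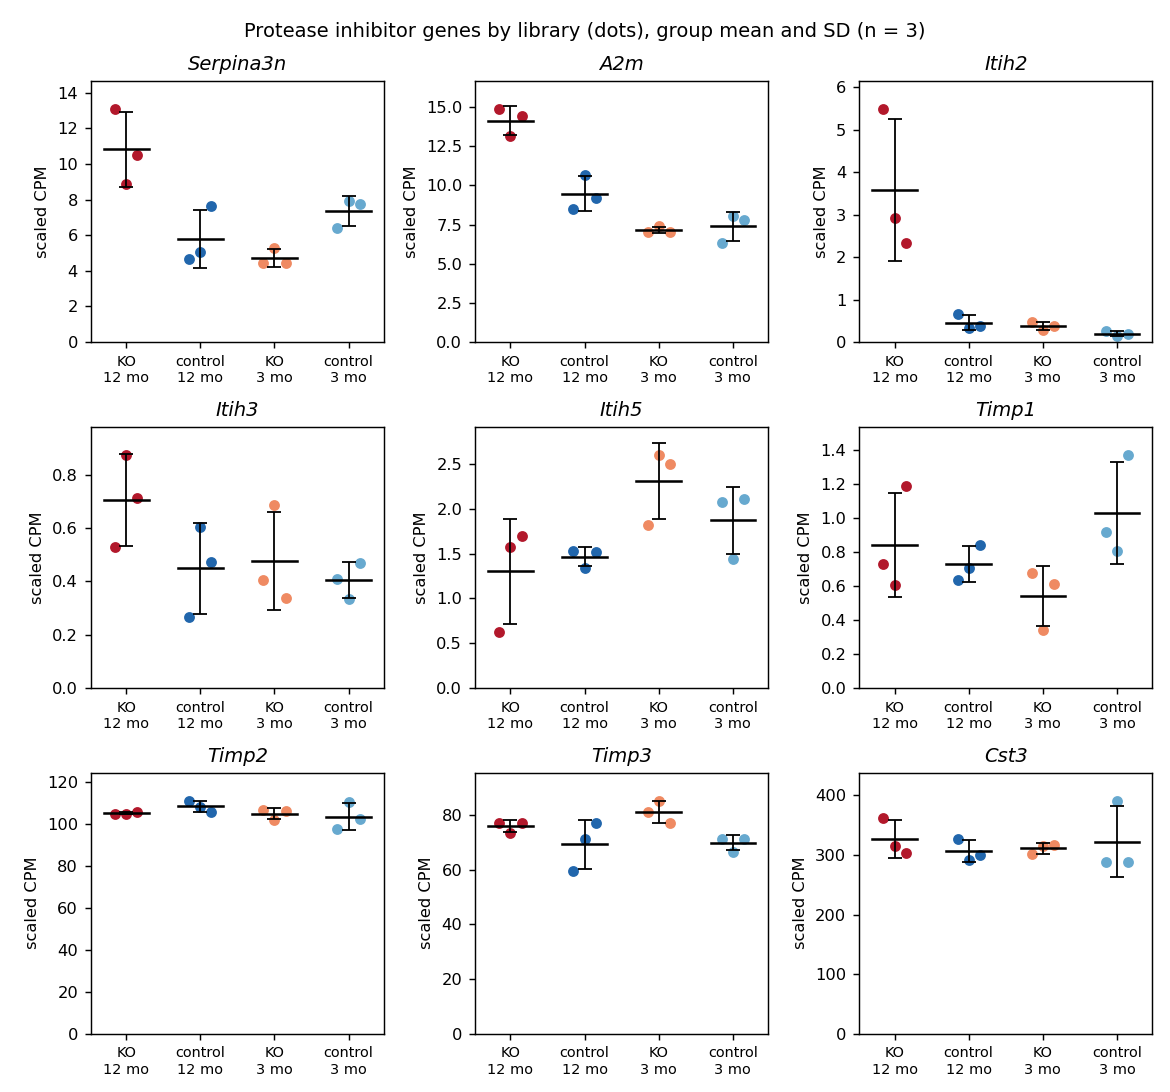
Scaled CPM of each inhibitor gene by library (dots), with the group mean (bar) and SD (error bar, n = 3), axes from 0. Serpina3n, A2m and Itih2 are highest in 12-month KO retina, Serpina3n is lower in KO than in control retina at 3 months, and Timp2 and Cst3 differ little between groups.

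The other 2 heavy chains did not pass the test in any comparison, and their changes were not tested against that of Itih2. Itih5 (chromosome 2 from 10153536 to 10256529, plus strand), the next gene along the chromosome, had 19, 47 and 50 counts in 12-month KO libraries, against 46, 40 and 45 in 12-month control libraries. The 3-month counts were 54, 76 and 74 counts in KO libraries, against 61, 43 and 63 in control libraries. The single low value of 19 counts came from KO replicate 1, the library with the most Itih2. The log2 fold change at 12 months was -0.17 ± 0.32 (SE), with adjusted p = 0.91 (edgeR), and it turned to 0.16 without that library. In KO retina Itih5 was at 1.30 ± 0.587 CPM at 12 months and 2.31 ± 0.426 CPM at 3 months (SD, n = 3 each). All 3 of the 12-month values were lower, but the log2 fold change of -0.83 ± 0.31 (SE) did not pass (adjusted p = 0.22, edgeR), and it was -0.49 without KO replicate 1.

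Itih3 (chromosome 14 from 30908572 to 30923787, minus strand), another heavy chain of the serum inhibitor, had between 8 and 26 counts in all libraries. It was at 0.705 ± 0.173 CPM in KO and 0.448 ± 0.170 CPM in control retina at 12 months, and at 0.476 ± 0.184 CPM in KO and 0.404 ± 0.0668 CPM in control retina at 3 months (SD, n = 3 each). The groups overlapped at both ages. The 12-month log2 fold change of 0.65 ± 0.44 (SE) had an adjusted p of 0.70 (edgeR). The 3-month one, 0.23 ± 0.47 (SE), had an adjusted p of 0.90. At such counts only large changes could be seen: the 95% interval at 12 months ran from -0.22 to 1.52.

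Among the TIMPs, Timp1 is the inducible member, raised in many tissues by cytokines and injury, whereas Timp2 and Timp3 are made steadily in neural tissue and Timp3 is held in the matrix. Timp1 (chromosome X from 20870166 to 20874737, plus strand) lies within the gene Syn1 on the opposite strand, whose 4862 to 5651 counts far exceeded the 10 to 41 counts of Timp1. The library kit keeps strand, but the strand setting of the counting is not stated, so reads of the pair cannot be told apart with certainty. Syn1 had log2 fold changes of -0.08 at 12 months and 0.03 at 3 months. Timp1 had 22, 18 and 35 counts in 12-month KO libraries, against 19, 21 and 25 in 12-month control libraries, which overlapped. The 3-month counts were 20, 10 and 18 counts in KO libraries, against 27, 24 and 41 in control libraries.

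The 3-month Timp1 values did not overlap, with KO lower. The log2 fold change of -0.92 ± 0.40 (SE) did not pass (adjusted p = 0.66, edgeR). At 12 months it was 0.20 ± 0.40 (SE), with adjusted p = 0.91, and the 12-month minus the 3-month KO effect was 1.13 ± 0.56 (SE), with adjusted p = 0.999 (edgeR). Without KO replicate 3, the library with 35 counts, the 12-month value was -0.13.

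Timp2 (chromosome 11 from 118301061 to 118355411, minus strand) was the steadiest of the 9. It averaged 105.0 ± 0.466 CPM in KO and 108.2 ± 2.67 CPM in control retina at 12 months, and 104.8 ± 2.49 CPM in KO and 103.3 ± 6.35 CPM in control retina at 3 months (SD, n = 3 each). The 12-month KO values, 104.7 to 105.5 CPM, lay just below the 12-month control values, 105.7 to 111.0 CPM. The log2 fold change was -0.04 ± 0.07 (SE), with adjusted p = 0.88 (edgeR) and a 95% interval from -0.17 to 0.09. In the other comparisons between groups the Timp2 fold changes lay between 0.00 and 0.07.

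Timp3 (chromosome 10 from 86300412 to 86349505, plus strand), a matrix-bound inhibitor that also blocks ADAM and ADAMTS proteases, stood at 81.0, 85.3 and 77.2 CPM in 3-month KO libraries, against 71.4, 66.7 and 71.5 CPM in 3-month control libraries. The KO libraries were all higher, by 1.16-fold (log2 fold change 0.22 ± 0.08, SE), and this did not pass over all genes (adjusted p = 0.65, edgeR). At 12 months it stood at 77.2, 73.4 and 77.1 CPM in KO libraries, against 59.5, 71.4 and 77.1 CPM in control libraries, which overlapped (log2 fold change 0.13 ± 0.08, SE, adjusted p = 0.67, edgeR). Timp3 lies within Syn3, a synapsin gene on the opposite strand with 581 to 968 counts, whose log2 fold changes were 0.03 at 12 months and 0.13 at 3 months.

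Cst3 (chromosome 2 from 148871722 to 148875512, minus strand) stood at 362, 316 and 303 CPM in 12-month KO libraries, against 327, 292 and 300.1 CPM in 12-month control libraries. At 3 months it stood at 301, 316 and 317 CPM in KO libraries, against 288, 391 and 288 CPM in control libraries. The highest value of each age came from the library that stood apart in its group, and the groups overlapped at both ages. At 12 months KO over control came to 0.09 ± 0.10 (SE) on the log2 scale (adjusted p = 0.82, edgeR). The 3-month value was -0.05 ± 0.10 (SE), with an adjusted p of 0.89. Without KO replicate 1 the 12-month value was 0.01, and without control replicate 2 the 3-month value was 0.11.

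**Figure D3:**
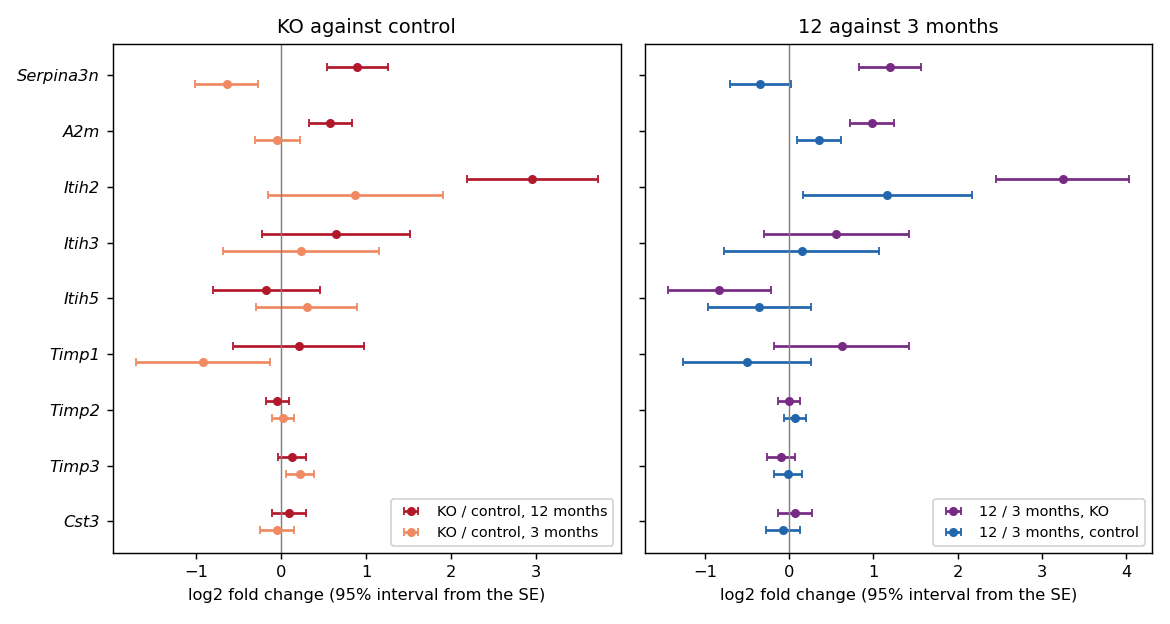
Log2 fold changes (dots) with 95% intervals from the SE, KO over control at each age on the left and 12 over 3 months in each genotype on the right. The 12-month values of Serpina3n, A2m and Itih2 (0.90, 0.58 and 2.96) are those that chose them and were not tested. The intervals of these genes in comparisons with a 12-month group are not corrected for that choice and are no test. At 3 months Serpina3n lies at -0.64.

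At 3 months none of the 9 genes passed, while 0.225% of all genes did (edgeR quasi-likelihood test). At an unadjusted p below 0.05 there were 3 of 9, Serpina3n, Timp1 and Timp3, and 7.5% of all genes, and DESeq2 and limma-voom also called none of the 9. The 3 KO libraries did not overlap the 3 controls for 4 of the 9, Itih2 and Timp3 being higher and Serpina3n and Timp1 lower, where 15.6% of all genes did not overlap, 7.97% higher and 7.66% lower. The median log2 fold change of the 9 was 0.02, against 0.00 over all genes. At 12 months none of the 6 genes not chosen for their rise passed, where 0.212% of all genes did, and 0 of 6 had an unadjusted p below 0.05, as 8.7% of all genes had. DESeq2 and limma-voom called none of the 6 either. Their median was 0.11, against 0.00 over all genes, and 1 of the 6, Timp2, did not overlap, being lower, against 16.6% of all genes, 8.32% higher and 8.33% lower.

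With age, none of the 6 passed in KO retina, where 2.37% of all genes did, or in control retina, where 2.11% did (edgeR). DESeq2 and limma-voom called none of them either. At an unadjusted p below 0.05 there was 1 of 6 in KO retina, Itih5, and 0 of 6 in control retina, against 13.3% and 12.5% of all genes. Itih5 was also the 1 of the 6 whose libraries did not overlap in KO retina, against 22.2% of all genes, 10.7% higher and 11.5% lower. In control retina 0 of the 6 were free of overlap, against 17.5% of all genes, 9.21% higher and 8.29% lower. For the 12-month minus the 3-month KO effect none of the 6 passed, where 0.127% of all genes did. None had an unadjusted p below 0.05 by edgeR or DESeq2, where 4.33% of all genes did by edgeR. By limma-voom 1 of the 6 did, and the share of all genes by limma-voom or DESeq2 is not given here. Both of these tools called none of the 6. For the 3 chosen genes that difference was 1.54 for Serpina3n, 0.62 for A2m and 2.08 for Itih2 on the log2 scale, given with no test.

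Over the 12 libraries the log2 CPM of A2m and Itih2 were related with a Pearson r of 0.85, those of Serpina3n and A2m with 0.74 and those of Serpina3n and Itih2 with 0.62. Itih5 ran opposite to all 3, with r from -0.70 to -0.61. These libraries share their groups, so a gene that differs by group gives such values, and they are descriptions. Of 14355 genes with a mean of at least 1 CPM, those most like Serpina3n were Zbtb20, Tnfrsf4 and Tsacc (r = 0.92, 0.89 and 0.89). Zbtb20, a zinc-finger repressor, had log2 fold changes of 0.42 at 12 months and -0.35 at 3 months. Most like A2m were the complement gene C4b, which belongs to the same protein family, H1f2 and Hcls1 (r = 0.95, 0.93 and 0.93). Most like Itih2 were Prkd1, Ppp2r2b and Klhl23 (r = 0.97, 0.94 and 0.93), whose own 12-month log2 fold changes were only 0.26, 0.19 and 0.25.

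The genes around these inhibitors were read from 8 lists of relatives, partners, target proteases and acute-phase genes. These lists were drawn up with earlier results of these data known, so counts of calls in them are descriptions. In all, 136 genes of the lists were tested. Of them 1 was higher and 0 lower in KO than in control retina at 12 months, and none passed at 3 months (edgeR), against 0.127% of all genes higher and 0.085% lower at 12 months and 0.0668% higher and 0.158% lower at 3 months. That gene was Edn2, an endothelin ligand known as a signal of stressed photoreceptors in mouse, at 12.0 ± 3.31 CPM in KO and 3.64 ± 0.147 CPM in control retina (SD, n = 3 each). It belongs to the list of gp130-STAT3 and acute-phase genes, of which 29 were tested with a median log2 fold change of 0.16 at 12 months and 0.00 at 3 months. The gp130 ligand Lif was at 2.17 ± 0.397 CPM in KO and 0.863 ± 0.220 CPM in control retina at 12 months (SD, n = 3 each), with a log2 fold change of 1.33 that did not pass (adjusted p = 0.10, edgeR).

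Of 17 tested serpins none passed in either KO comparison, with medians of 0.185 at 12 months and 0.13 at 3 months. Of 5 tested relatives and receptors of A2m none passed, with medians of 0.06 and 0.05. C4b had a 12-month log2 fold change of 0.64 ± 0.14 (SE), with adjusted p = 0.072 (edgeR). None of 20 tested partners of the heavy chains and genes of hyaluronan matrix passed, with medians of -0.07 and -0.06. Those with the highest mean CPM were the proteoglycan Bcan (log2 fold change -0.19 at 12 months, adjusted p = 0.57, edgeR) and the link protein Hapln4 (-0.11, adjusted p = 0.80). None of 32 metalloproteases and other TIMP partners passed, with medians of -0.09 and -0.06. Among 4 tested cystatins the medians were 0.28 and -0.10, among 13 cathepsins and related proteases 0.02 and -0.04, and among 16 serine proteases and their receptors 0.05 and -0.04, with no gene past the threshold. The cathepsins with the highest mean CPM, Ctsb and Ctsd, had 12-month log2 fold changes of 0.00 and 0.02.

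**Figure D4:**
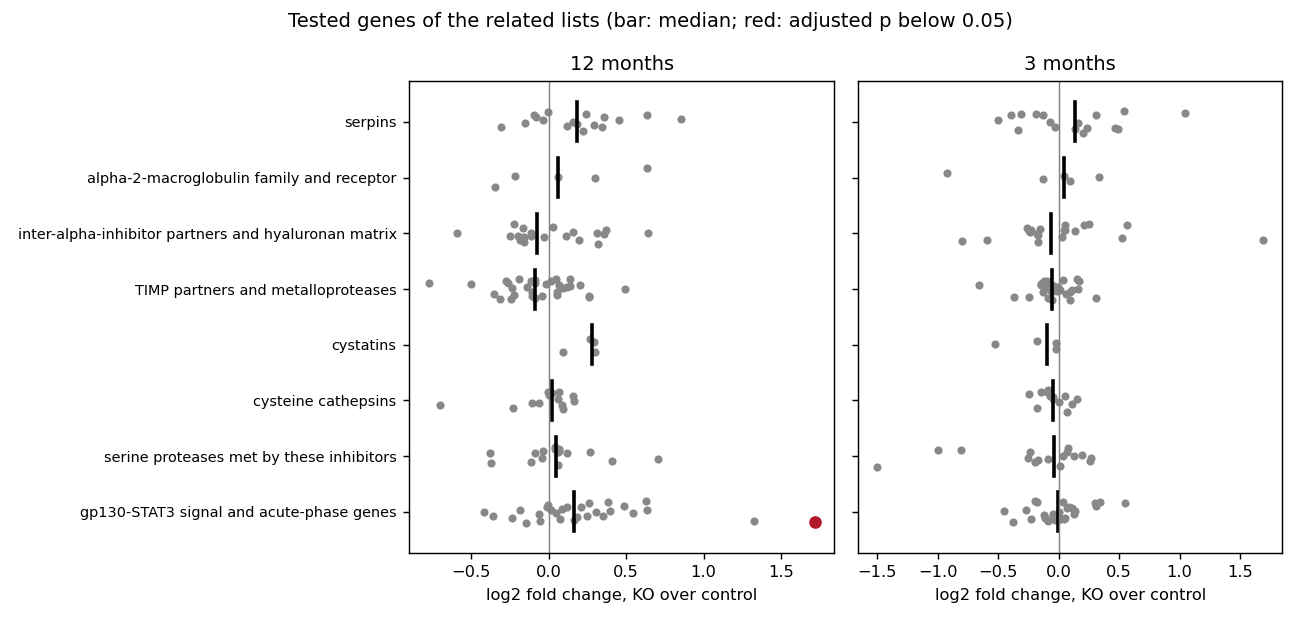
Log2 fold changes of KO over control for each tested gene of the 8 related lists at 12 months (left) and 3 months (right), with the list median as a bar and genes with an adjusted p below 0.05 in red. The single red gene is Edn2 at 12 months (1.72), and the list medians lie between -0.10 and 0.28. The lists were drawn up with earlier results of these data known.

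With age these lists held more calls. In KO retina 7 of the 136 rose and 3 fell at 12 months relative to 3 months, against 1.54% of all genes higher and 0.832% lower (edgeR, adjusted p of the 10 from 7.25e-05 to 0.033). The rises were C4b (log2 fold change 1.16), the cystatin Cst6 (1.43), the Müller glia protease Prss56 (0.98), Edn2 (1.42), Lif (1.27), the kinase Jak1 (0.30) and the transcription factor Junb (0.69). The falls were the metalloprotease Mmp17 (-0.45), the thrombin receptor F2r (-0.70) and the membrane protease Tmprss5 (-1.41). Cst6 had 49 to 86 counts in 12-month KO libraries, against 22 to 28 counts in 3-month KO libraries. Age in KO retina cannot be told apart from whatever made the Xist levels differ, as given above.

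In control retina 3 of the 136 rose and 5 fell with age, against 1.4% and 0.71% of all genes (edgeR, adjusted p from 3.62e-05 to 0.030). The rises were C4b (0.61), Prss56 (0.78) and Junb (0.76). The falls were the collagen chaperone Serpinh1 (-0.63), the matrix protease Adamts1 (-0.84), Mmp17 (-0.36), Tmprss5 (-1.24) and the acute-phase regulator Cebpd (-0.77). In 3-month control libraries lens and muscle genes were high, as given above, and their part in these falls was not tested. The age comparisons of the 2 genotypes share no library. For the 12-month minus the 3-month KO effect Edn2 was the single gene of the 136 to pass, higher, where 0.109% of all genes were higher and 0.0182% lower. As the lists were drawn up with earlier results known, this too is a description.

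Markers of retinal glia, vessels and other cell types were summed in the same libraries. The 16 Müller glia genes summed to 4675 to 4690 CPM in 12-month KO and 4778 to 4924 CPM in 12-month control libraries, and the 10 astrocyte genes to 385 to 409 and 394 to 419 CPM. No tested gene of either list passed in any KO comparison. The 16 microglia and macrophage genes summed to 76.9 to 84.9 and 74.1 to 78.3 CPM, the 12 endothelial genes to 301 to 339 and 310 to 315 CPM, the 13 mural genes to 1079 to 1183 and 1086 to 1185 CPM, and the 11 fibroblast genes to 64.6 to 74.4 and 37.7 to 78.1 CPM, in 12-month KO and 12-month control libraries in that order. The 14 pigment epithelium genes summed to 118 to 156 and 133 to 177 CPM and the blood genes to 3.70 to 5.29 and 3.04 to 5.74 CPM in the same order. The rod genes, which mark the tissue as retina, summed to 59770 to 62580 and 61020 to 63320 CPM. None of these lists had a called gene at 12 months, while 1 of the 14 ganglion cell genes was called, higher in KO. Over all genes 0.127% were called higher in that comparison. At 3 months 1 of the 12 tested mural genes was called, lower in KO. So were 12 of 15 skeletal muscle genes and 1 of 16 tested lens genes, while 1 of the 14 ganglion cell genes was higher. Over all genes 0.0668% were called higher and 0.158% lower at 3 months (edgeR).

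Some of these lists also held genes called with age. Over all genes 1.54% rose and 0.832% fell with age in KO retina, and 1.4% rose and 0.71% fell in control retina (edgeR). The microglia and macrophage genes summed to 76.9 to 84.9 CPM in 12-month KO libraries, against 65.5 to 66.99 CPM in 3-month KO libraries. In control libraries they summed to 74.1 to 78.3 CPM at 12 months, against 58.8 to 64.4 CPM at 3 months. Of the 12 tested, 2 rose in KO and 1 rose in control retina (edgeR), with a median log2 fold change of 0.35 in both. The 12 tested mural genes had a median of -0.09 in KO retina with none called, and of -0.54 in control retina, where 2 fell. The pigment epithelium genes had medians of -0.28 in KO retina, where 1 of 14 fell, and -0.44 in control retina, where none was called. Of the fibroblast list 1 of 10 rose in KO retina, and of the rod list 1 of 10. The part of these cell types in the age calls of C4b, Junb, Adamts1 and the other listed genes was not tested. In bulk retina, fewer cells of a type and less RNA per cell cannot be told apart.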

How the data were processed

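RNA of isolated mouse retina was sequenced in 12 libraries, 3 in each of 4 groups given by the labels. Per the submitters' processing notes, HISAT2 2.1.0, featureCounts 1.6.4 and DESeq2 1.22.1 were used with GRCm38. Unnormalized counts for each Entrez gene were deposited by the authors, with HISAT2 and featureCounts named in the file names and headers. For the strand setting and the handling of pairs and multiple alignments, no value is given in the sources used here. The authors deposited one table for 12 months without a header, read from its values as log2 fold changes with their standard errors and Wald score, p-values and adjusted p-values. Its log2 values lie nearer to 0 than those computed here and may be shrunken.

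Names came from a RefSeq table (25275 of 27179 IDs) and exon lengths from GENCODE M21. Counts were fitted with edgeR 4.0.16 in R 4.3.3: filterByExpr, TMM scaling, robust quasi-likelihood fit over all 12 libraries with 1 coefficient per group, Benjamini-Hochberg adjustment over 16475 genes, and a threshold of 0.05. Intervals are the log2 fold change ± 1.96 SE. This normal quantile makes them narrower than the edgeR test would. For the Timp1 difference of KO effects the interval ran from 0.02 to 2.23, with an unadjusted p of 0.0601 (edgeR). The 12 libraries held 29027099 to 30438026 counts, and the common biological coefficient of variation was 0.11. On simulated data for the 3-month comparison with 16268 genes, the fit recovered 69.6% of 1.5-fold, 79.1% of 2-fold and 93.8% of 4-fold changes, and 3 of 164 calls were false. DESeq2 1.42.0, limma-voom (limma 3.58.1), other scalings and filters, a replicate block and leaving out each library were alternatives. The 9 genes and all lists were chosen with earlier results of these data known. In each list the text names genes that pass, up to 4 per comparison, or the 2 with the highest mean CPM where none passes, and the 3 genes most like each chosen gene. Lif and C4b at 12 months were named because they pass with age.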

Additional observations from a re-analysis of the deposited data

Results flagged for a closer look

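Serpina3n drew attention because its KO libraries lay on opposite sides of the controls at the 2 ages. At 12 months all 3 KO libraries were above all 3 control libraries, with a log2 fold change of 0.90, which is the rise that chose the gene. At 3 months all 3 KO libraries were below all 3 control libraries, with a log2 fold change of -0.64 that did not pass (adjusted p = 0.49, edgeR). Of all genes 15.6% did not overlap at 3 months, 7.66% being lower. The share of all genes on opposite sides at the 2 ages is not given here. The difference between the ages was not tested, since the 12-month libraries were used to choose the gene.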

How the results depend on the processing

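Of 798 values of the 9 genes under 23 alternatives, 580 had a test: 561 kept their direction and their side of the threshold, and 19, none of which had passed, turned their direction. The other 218 are values of the chosen genes with no test. All kept their direction, but they share libraries with the choice of these genes, so this is a description and no support. In no comparison was a tested member called under any alternative, and the smallest adjusted p was 0.11 (Serpina3n at 3 months, limma-voom). With limma-voom the log2 fold change was 0.019 for Itih5 at 12 months, 0.080 for Cst3 at 3 months, 0.053 for Cst3 with age in control retina and -0.028 for Cst3 in the 12-month minus 3-month KO effect, and the cause was not tested. With 1 library left out, KO over control at 12 months ranged from -0.41 to 0.16 for Itih5 and from -0.13 to 0.39 for Timp1. At 3 months it ranged from -0.14 to 0.019 for A2m, -0.12 to 0.42 for Itih3, -0.018 to 0.070 for Timp2 and -0.13 to 0.11 for Cst3. With age in control retina it ranged from -0.13 to 0.41 for Itih3, -0.094 to 0.088 for Timp3 and -0.15 to 0.088 for Cst3. With age in KO retina it ranged from -0.018 to 0.014 for Timp2 and -0.0091 to 0.12 for Cst3, and the difference of KO effects of Cst3 from -0.017 to 0.22.

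Counts over all genes moved more. At 12 months 35 genes were called, against 127 by DESeq2, 186 by limma-voom, 64 with no filter, 66 at a threshold of 0.1, and 13 to 52 with 1 library left out. At 3 months it was 37, against 63 and 79 by those tools and 21 to 41 with 1 left out. With age, 347 were called in control retina (198 to 773 under other settings, 201 to 440 with 1 left out) and 390 in KO retina (368 to 1319, and 187 to 367). For the difference of KO effects it was 21, against 18 to 50 and 14 to 29.

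Replicate numbers did not pair the libraries: deviations of same-numbered libraries correlated at -0.15 to 0.22 over 18 pairs, with 1 over 0.1, and a library correlated best with its own number in 8 of 36 cases. With the replicate block 0 members were called in all 5 comparisons, and 40, 38, 317, 368 and 22 genes in all, in the order above. Under the stricter filter, 1 CPM in 3 libraries, Itih3 and Timp1 were not tested. With only the 3-month libraries in the fit, Itih2 was not tested. At 8 to 41 counts, Itih3 and Timp1 could show large changes only. Intervals cover the spread between libraries.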
